A study of Homo sapiens with 6 samples.

Results

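The annotated retained introns of a human beta cell transcript assembly are described here: stretches that 1 reference transcript model removes as an intron and another model of the same gene name and strand keeps inside a single exon. Reference models were those with a RefSeq accession and an exact match to it, on chromosomes 1 to 22 and X, and each intron was counted once. The rule found 1175 retained introns among 218400 distinct reference introns, or 0.538%. The exon that keeps the intron was classed as first, internal or last in its model, or as single where the model has no other exon, and its model as protein-coding (accession NM_) or non-coding (NR_).

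The assembly was built from 6 RNA libraries of EndoC-βH1, an immortalised human pancreatic beta cell line. In the 3 INS-KD libraries, cells carrying a lentiviral short hairpin RNA construct aimed at the promoter of the insulin gene were kept for 7 days in doxycycline at 1 mg/mL, which switches the hairpin on. In the 3 Negative Control libraries, the same construct was present and no doxycycline was given. All libraries come from this 1 line, and no library received doxycycline without the hairpin, so the drug and the hairpin cannot be told apart. The file merges all 6 libraries into 1 set of exon positions and holds no abundance, so no intron could be compared between INS-KD and Negative Control, and the depth is unknown. Reference models are listed whether or not a library expressed them, which also means that the beta cell label could not be checked against marker levels; 25 of 25 listed granule and secretion genes had a multi-exon reference model.

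Introns are cut out by the spliceosome, which reads a donor site at the 5′ end and an acceptor site at the 3′ end. When an intron stays in, it can lengthen an untranslated region, add amino acids if it is read through in frame, or bring in a stop codon that exposes the RNA to nonsense-mediated decay. Retention held in the nucleus is also a known way to delay the output of genes such as the splicing kinase CLK1. In beta cells, insulin and the stress factor XBP1 are well-known examples of genes whose messages exist with and without a short intron.

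INS, the insulin gene, is shown first because its promoter is the hairpin's target and its first exon holds 3 retained introns. The windows are on the minus strand of hg19, read 5′ to 3′, with 9 exon and 11 intron bases at a donor and 17 intron and 3 exon bases at the acceptor. Capitals mark the intron's terminal bases.
INS donor of the 179-base intron, chr11:2182387-2182406: atcaagcagGTctgttccaa
INS donor of the 153-base intron, chr11:2182361-2182380: ttgcgtcagGTgggctcagg
INS donor of the 119-base intron, chr11:2182327-2182346: ggaccccagGCcccagctct
INS acceptor shared by all 3, chr11:2182216-2182235: ccctgcctgtctcccAGatc

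XBP1 encodes a transcription factor of the unfolded protein response, and its short intron is known to be removed in the cytoplasm by the endonuclease IRE1 and not by the spliceosome. The whole intron is shown in capitals with 9 exon bases on either side, on the minus strand. As annotated it has neither a GT nor a GC donor. A further 6 placements, in steps of 1 base, give the same spliced sequence, so the marked ends need not be the cut sites.
XBP1 intron, chr22:29192103-29192146: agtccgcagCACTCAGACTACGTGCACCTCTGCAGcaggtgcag

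DDIT3, which encodes the stress-induced factor CHOP, had 1 donor used with 5 acceptors, all on the minus strand. They are shown because the choice of acceptor goes with the reading frame, as described further on.
DDIT3 shared donor, chr12:57911478-57911497: tgaaagcagGTaaacttaac
DDIT3 acceptor of the 110-base intron, chr12:57911376-57911395: catctctgccactgtAGcac
DDIT3 acceptor of the 163-base intron, chr12:57911323-57911342: atgtggctgtattccAGtac
DDIT3 acceptor of the 186-base intron, chr12:57911300-57911319: tttacctacaaaaacAGgca
DDIT3 acceptor of the 267-base intron, chr12:57911219-57911238: tccccattatcctgcAGatg
DDIT3 acceptor of the 281-base intron, chr12:57911205-57911224: cagatgtgcttttccAGact

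The next 4 introns lie inside coding sequence, and the longest reading frame ran through each of them without a stop. They were chosen after their values were seen, as examples of an ordinary intron that doubles as coding sequence (HNRNPM, BCL2L11, CHAC1) and of an annotated intron that is a repeat unit (CLEC4M). All are on the plus strand, with the intron in capitals and 9 exon bases on either side.
HNRNPM, chr19:8530238-8530372: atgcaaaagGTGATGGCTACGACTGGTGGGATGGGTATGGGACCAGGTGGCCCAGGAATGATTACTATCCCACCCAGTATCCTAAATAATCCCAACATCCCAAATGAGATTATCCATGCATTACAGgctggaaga
BCL2L11, chr2:111881438-111881635: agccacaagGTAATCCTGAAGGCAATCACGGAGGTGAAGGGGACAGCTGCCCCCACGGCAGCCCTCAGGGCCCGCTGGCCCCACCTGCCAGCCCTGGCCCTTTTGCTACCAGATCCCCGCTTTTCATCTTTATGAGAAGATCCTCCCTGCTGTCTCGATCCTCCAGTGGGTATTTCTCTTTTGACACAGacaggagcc
CHAC1, chr15:41247604-41247756: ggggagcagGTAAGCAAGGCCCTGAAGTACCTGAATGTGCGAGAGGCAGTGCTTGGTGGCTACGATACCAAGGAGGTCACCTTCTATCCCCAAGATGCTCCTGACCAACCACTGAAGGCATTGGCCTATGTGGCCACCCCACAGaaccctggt
CLEC4M, chr19:7830661-7830747: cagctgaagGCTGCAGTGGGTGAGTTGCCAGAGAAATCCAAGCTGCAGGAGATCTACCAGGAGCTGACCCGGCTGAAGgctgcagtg

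The 1175 introns belonged to 887 gene names, which is 4.14% of the 21400 names with a multi-exon reference model. Retention can be annotated only where a name has at least 2 models, and 9.57% of the 9265 such names had it. The share was 6.54% for names with exactly 2 models, 9.65% with 3, 11.8% with 4 or 5, 17.7% with 6 to 10, and 19.8% above that, so the number of models per name moves with it. Of the 887 names, 696 had 1 retained intron, 133 had 2, and 5 had 6. Retained introns that overlap on the same strand, whatever their name, merged to 982 separate regions, since many differ only in their donor or acceptor.

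The 5 names with 6 retained introns were AMZ2, ATXN2L, CCL4L2, CLEC4M and MUC20. AMZ2, a putative metalloprotease, combined a few donors and acceptors inside its first exon, in introns of 482 to 585 bases. ATXN2L, a relative of the ataxin-2 RNA-binding protein, had all 6 in its last exon, in introns of 149 to 628 bases. CCL4L2, a chemokine gene, had 1 donor and 6 acceptors in introns of 402 to 606 bases; it belongs to a near-identical multigene family, so its models are uncertain.

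Most retaining exons were at the end or the start of their model. The exon was last and nothing else for 509 introns (43.3%), first for 425 (36.2%), internal for 184 (15.7%) and single for 38 (3.23%), and 19 introns had retaining exons of more than 1 class. Protein-coding models alone retained 921 introns (78.4%), non-coding models alone 186 (15.8%), and both kinds 68. Non-coding models alone accounted for 34.2% of the single class (13 of 38), 27.7% of the internal class, 17.4% of the first class and 9.23% of the last class. For scale, 79.7% of the 46927 reference models were protein-coding.

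**Figure D1:**
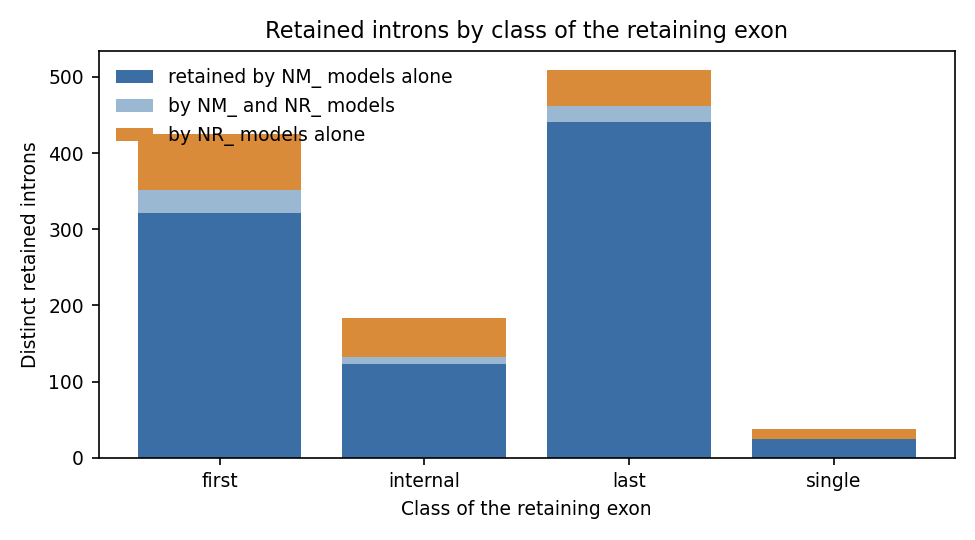
Distinct retained introns (vertical axis, number) by class of the exon that keeps them (horizontal axis), split by whether protein-coding (NM_), non-coding (NR_) or both kinds of model retain the intron. The last class holds 509, the first 425, the internal 184 and the single class 38; the 19 introns of mixed class are not drawn.

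A retaining exon was usually the plain sum of exon, intron and exon. For 858 introns (73.0%) it had the outer ends of the exon pair of a splicing model, and in the internal class this share was 89.7%. The 1020 distinct retaining exons had a median length of 829.5 bases, and 959 of them held either 1 intron or introns that all overlap each other. A splicing and a retaining model shared a start site group, the file's own label for transcripts with a common start, for 87.7% of the introns. The intron was removed by only 1 reference model in 868 of 1175 cases (73.9%), against 2027 of the 9223 other introns of the same gene names and 58.9% of all other introns. By the rule at least 1 model of the name keeps a retained intron, so fewer models are left that can remove it. All other introns also include those of names with only 1 model.

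INS, described from its sequences above, showed the pattern of the first class. Its 3 introns of 179, 153 and 119 bases lay wholly inside a first exon that continues past the shared acceptor, and the 119-base intron had a GC donor. The GENCODE annotation listed the 179- and 153-base introns as introns, but not the 119-base one. The retaining model was 644 bases long, against 465, 491 and 525 bases for the 3 splicing models filed under the name INS. The longest reading frame was 110 amino acids in all 4 INS models, and the 3 introns lie before it, in the untranslated leader. The 179-base intron is also spliced in models filed under the overlapping name INS-IGF2, which brings its splicing models to 3.

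XBP1 had a single retained intron of 26 bases, the shortest of all, with CA-AG ends in the annotated placement. Its retaining model of 1820 bases had a longest frame of 261 amino acids, and the splicing model of 1794 bases had a frame of 376. The length is no multiple of 3, so the frame shifts at that point. GENCODE did not list this stretch as an intron.

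DDIT3 had 5 retained introns of 110, 163, 186, 267 and 281 bases in the same internal exon. The retaining model, of 1178 bases, had a longest frame of 192 amino acids. The models that splice the 110-, 163- and 186-base introns also had 192, while those that splice the 267- and 281-base introns had 169. The pair of acceptors farthest from the donor went with the shorter frame.

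**Figure D2:**
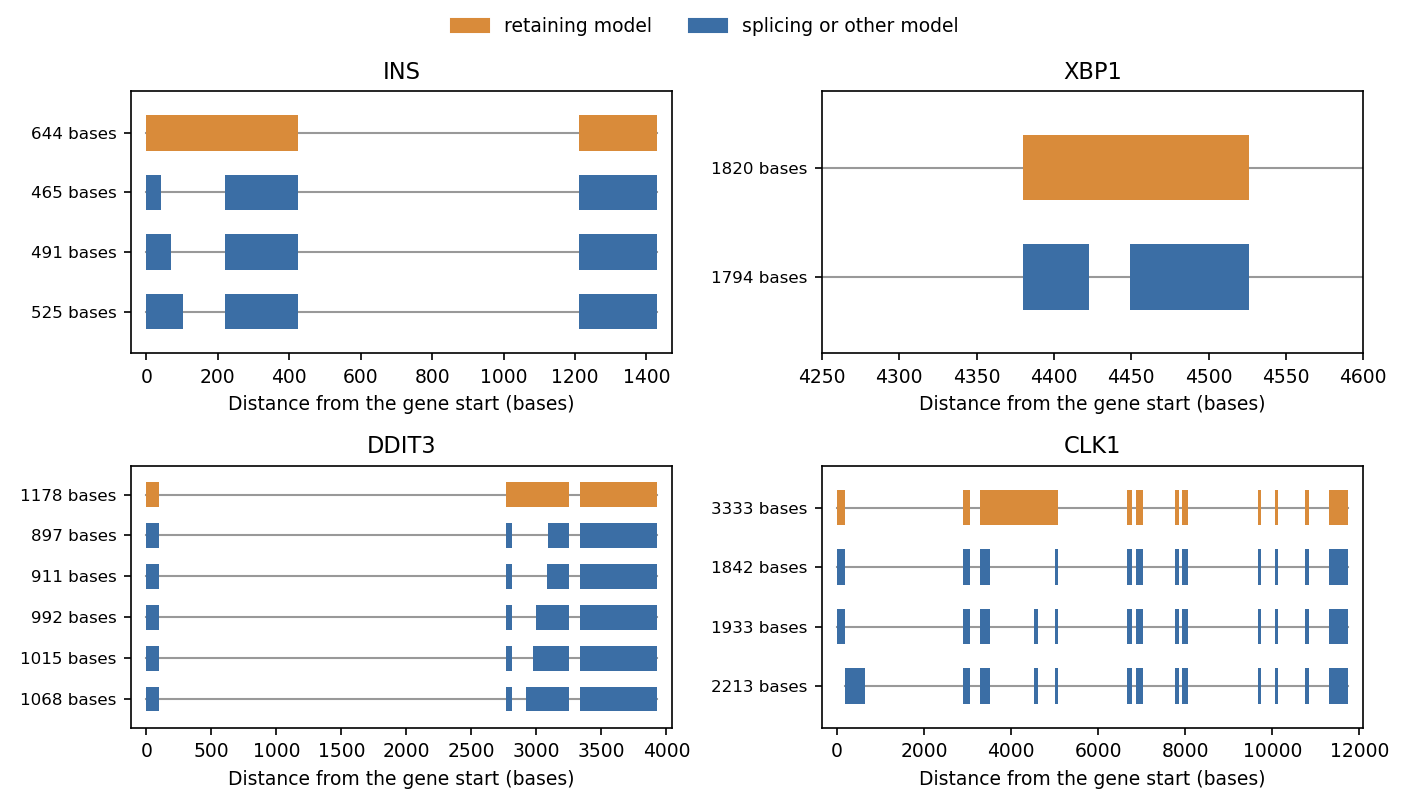
Exons (boxes) of every reference model filed under the names INS, XBP1, DDIT3 and CLK1 by distance from the gene start in bases (horizontal axis), 1 model per row named by its spliced length, with the retaining model in orange on top. The XBP1 panel shows only the exon with the 26-base intron; in INS and DDIT3 the splicing models differ by where 1 end of the intron falls.

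Retained introns were short. Their median length was 279 bases (95% interval 255 to 301, quartiles 136 and 582), against 1309 bases (1246 to 1368) for the 9223 other introns of the same gene names and 1706 for all 217225 other introns. The internal class had the lowest median, 172.5 bases, followed by the first class with 203 and the last class with 434. Within gene names, the retained introns had the lower median length in 754 of 862 names that also had other introns (87.5%). An exon has to hold the whole intron, so length is not free of the rule.

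**Figure D3:**
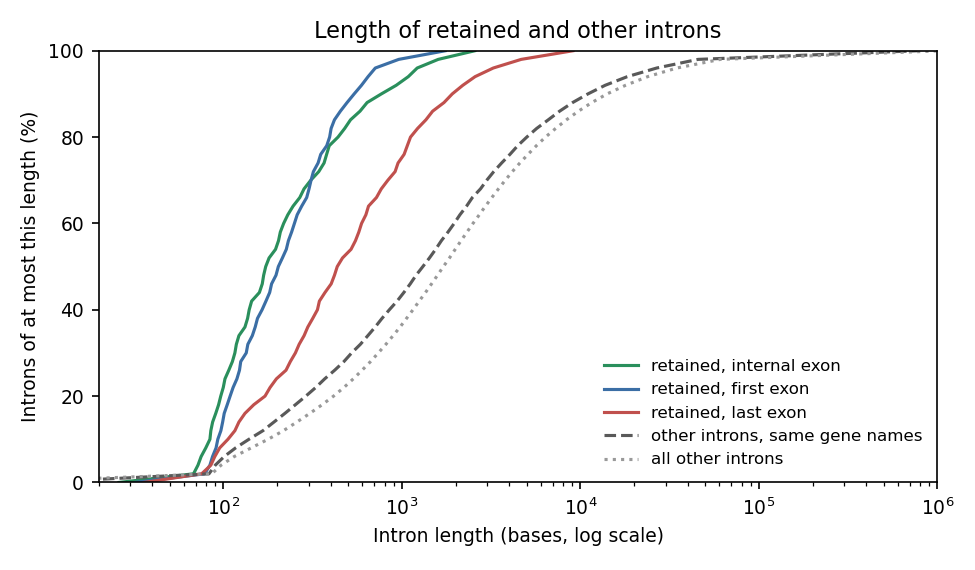
Cumulative share of introns (vertical axis, %) by length in bases (horizontal axis, log scale) for retained introns by exon class and for 2 sets of other introns. The 3 retained curves lie left of both others over most of their range, with medians of 172.5, 203 and 434 bases against 1309 and 1706.

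The shortest were those of XBP1 with 26 bases, NPRL3 with 32 and TP73-AS1 with 36. The NPRL3 and TP73-AS1 introns carried long direct repeats, treated below. The longest were in last exons: 9080 bases in BRWD1, a bromodomain protein, 8738 in STON2, an endocytic adaptor, and 6759 in C14orf132.

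GC content was higher in retained introns, with a median of 56.5% (95% interval 55.4 to 57.4) against 47.6% (47.3 to 47.9) in the other introns of the same names and 43.7% in all others. The first class had the highest median, 62.6%, ahead of 57.1% in the internal and 51.9% in the last class. Length moves with it: among introns under 150 bases the medians were 58.7% for retained and 61.1% for other introns of the same names, so the order turned there. From 150 to under 300 bases they were 60.5% and 57.4%, and from 300 to under 1000 bases 55.7% and 51.9%.

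The splice sites differed in kind and in strength. GT-AG ends were found in 93.2% of retained introns (95% exact binomial interval 91.6 to 94.6) and 98.5% (98.3 to 98.8) of the other introns of the same names. GC-AG ends made up 4.94% (58 introns, interval 3.77 to 6.33) against 1.15% (0.942 to 1.39), and 0.962% in all other introns. The GC-AG share was above that of the other introns of the same names in each of 4 length ranges, with 6.95% against 1.80% under 150 bases and 4.85% against 1.02% from 1000 bases. Introns of 1 gene share ends, so these intervals cover counting error only, and no test was run on them.

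A GC donor is known to pair less well with the U1 small nuclear RNA, and such sites usually match the rest of the donor consensus closely. In the retained GC-AG introns the last 2 exon bases were close to those of other introns. The exon base before these differed, and intron positions 3, 4, 5 and 6 matched less often. The last exon base was G in 91.4% of them, against 90.6% in other introns of the same names, and the base before it A in 82.8%, against 81.1%. At intron position 3 an A stood in 50% of the 58 donors, against 84.0% of 106 in other introns of the same names and 87.4% of 2089 in all others. At position 5 a G stood in 53.4%, against 89.6% and 93.3%. Position 4 held A in 37.9%, against 63.2% and 75.3%, and position 6 held T in 34.5%, against 60.4% and 70.2%. Scored without position 2, the retained GC donors had a median of 4.96, against 8.43 for GC donors in other introns of the same names; for GT donors the medians were 4.71 and 6.19. In GT-AG introns position 5 held G in 71.5% of retained introns, 79.9% of other introns of the same names and 78.0% of all others.

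A position weight score over 3 exon and 6 intron bases sums the log2 odds of each base against an even background. The median donor score was 6.42 (95% interval 6.05 to 6.67) in retained introns and 8.15 (8.08 to 8.19) in the other introns of the same names. For the acceptor, over 20 intron and 3 exon bases, the medians were 7.67 (7.37 to 7.92) and 9.24 (9.15 to 9.33). Among GT-AG introns alone the donor medians were 6.69 and 8.18, so the difference does not rest on the other ends. The internal class had the lowest acceptor median, 5.91. Retained introns were not used to set the weights, and the other introns were.

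**Figure D4:**
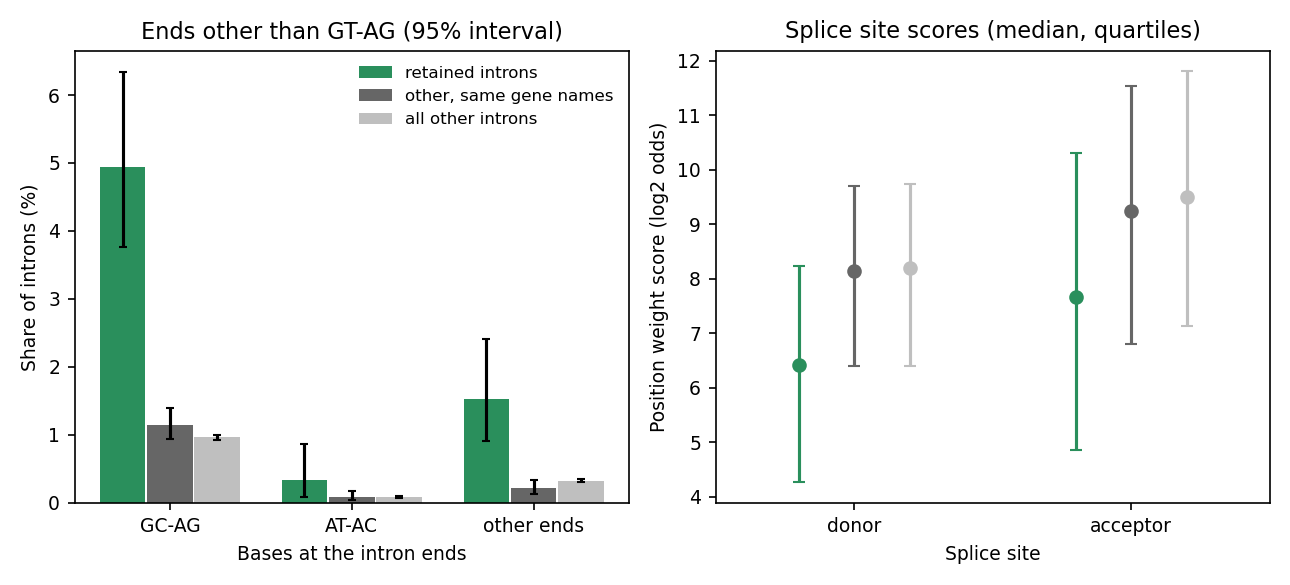
Left, share of introns (vertical axis, %) with GC-AG, AT-AC or other ends, with exact binomial 95% intervals; right, donor and acceptor scores (vertical axis, log2 odds) as median and quartiles. Retained introns have the highest bar for each kind of end, 4.94% for GC-AG, and the lowest medians at both sites, 6.42 and 7.67.

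AT-AC ends, typical of part of the introns cut by the minor U12 spliceosome, were found in 4 retained introns, those of FNDC5, BIRC3 and DAZAP2 among them. None of the 4 donors began with the U12-type motif, searched as ATATCCTT or GTATCCTT at the intron's start on its own strand. The DAZAP2 and FNDC5 windows show this and were picked after the values were seen. The motif was found in 2 retained introns (0.170%) and in 0.347% of the other introns of the same names and 0.253% of all others.
DAZAP2 donor of the 66-base intron, plus strand, chr12:51634705-51634724: gtcagccgcATttcctggag
FNDC5 donor of the 1013-base intron, minus strand, chr1:33330356-33330375: cagtatgacATcatcaagga

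A further 18 retained introns (1.53%) had none of the usual ends, against 0.217% of the other introns of the same names. They included the XBP1 intron, all 6 of MUC20, a cell-surface mucin, 3 of the non-coding gene LINC01128 and 1 each of CLEC4M and PER3. GENCODE listed 2 of the 18 as introns (11.1%), against 96.3% of the retained introns with GT-AG ends.

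Many of these introns begin and end with the same bases. Where the start of an intron repeats at its end, the intron can be moved along the genome without changing the spliced sequence, and the length of that repeat was measured. A repeat of at least 10 bases was found at 19 retained introns (1.62%, interval 0.976 to 2.51) and 9 of the 9223 others (0.0976%, 0.0446 to 0.185). The internal class held 10 of the 19, and 9 of those 10 were a multiple of 3 long. PER3, a circadian clock gene with a known coding repeat, had a 54-base stretch with a repeat of 58 bases, the most the search could return and more than its own length. The CLEC4M stretch shown above is 69 bases long with a repeat of 36 bases, in the part that encodes the repeated neck of this lectin. GENCODE listed 5 of the 19 as introns.

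Lengths that keep the reading frame were more frequent in the internal class. The length was a multiple of 3 in 38.8% of retained introns (36.0 to 41.7), against 32.5% (31.6 to 33.5) of the other introns of the same names. It was 54.9% in the internal class, 32.0% in the first and 37.5% in the last. Within the internal class, the share was 61.0% of 123 introns retained by protein-coding models alone and 39.2% of 51 retained by non-coding models alone. Leaving out repeats of 10 or more bases, it was 52.9% of 174.

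To see what the intron does to the frame, each splicing model was paired with a retaining model that has the same introns except for the retained one. There were 890 such pairs, for 825 introns in 658 gene names, and 704 pairs had protein-coding models on both sides. The frame given is the longest run from ATG to stop in the spliced genome sequence, which need not be the one that is translated. Of the 704 pairs, 161 (22.9%) had a shorter frame in the retaining model, 297 (42.2%) an equal and 246 (34.9%) a longer one. The intron lay inside the splicing model's frame in 51.0%, before it in 39.9% and after it in 9.09%.

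Each class had its own outcome. In the first class, 83.1% of 290 pairs had the intron before the frame, and the frame was equal in 73.1%. In the internal class, the frame was longer in the retaining model in 66.3% of 95 pairs, with a median of 106% of the splicing model's frame. In the last class, the frame was longer in 40.9% and shorter in 37.2% of 301 pairs. The file's own coding sequence tag, which 2 models share when their coding sequence is the same, was shared in 75.2% of first, 15.8% of internal and 21.3% of last pairs.

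**Figure D5:**
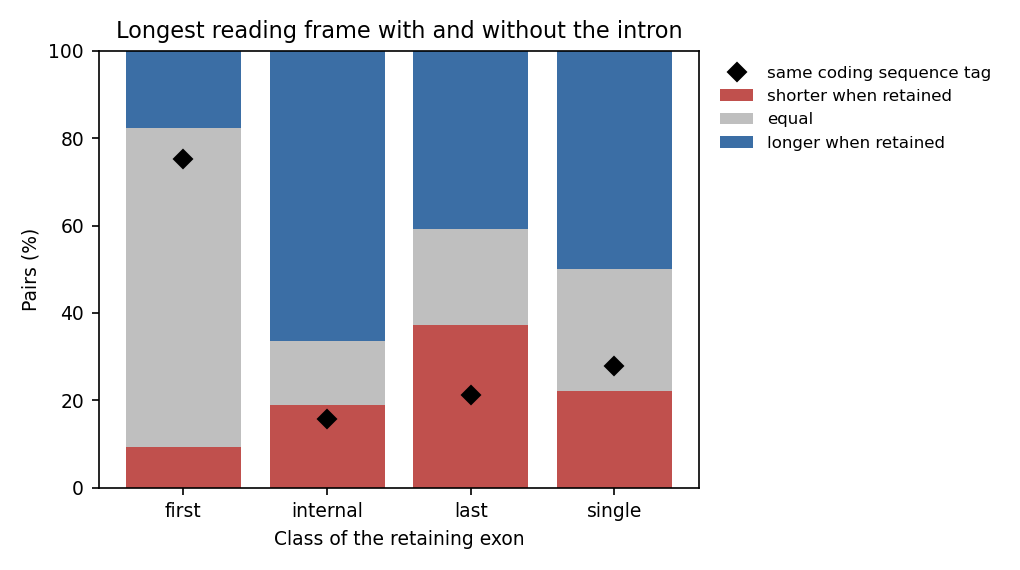
Pairs of protein-coding models (vertical axis, %) by class of the retaining exon (horizontal axis), split by whether the longest reading frame is shorter, equal or longer in the retaining model; black diamonds give the share of pairs with the same coding sequence tag. The equal share is 73.1% in the first class, and the longer share is 66.3% in the internal class.

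In 173 of these pairs the intron lay inside the frame and was a multiple of 3 long. The retaining model's frame was longer by exactly the intron's own length in 100 of them (57.8%), in 83 gene names: the annotated intron is read through as coding sequence. BCL2L11, which encodes the cell death factor BIM, had frames of 198 and 169 amino acids in its retaining models, against 138 and 109 with the 180-base intron removed. HNRNPM, a splicing repressor, had 730 against 691, and RPL13, a large-subunit ribosomal protein, 211 against 164. CHAC1, a glutathione-degrading enzyme induced in endoplasmic reticulum stress, had 264 against 219.

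Signalling and survival genes were also among the 83 names. MCL1, a survival protein of the BCL2 family, had a frame of 350 amino acids in the retaining model and 197 in the splicing model. RELA, a subunit of NF-κB, had 551 and 448, and TNFRSF10B, a death receptor for TRAIL, 440 and 411. GREM1, a secreted BMP antagonist, had 184 in the retaining model and 114 or 143 in the splicing models. CACNA1G, a T-type calcium channel, had 2250, 2273 and 2284 in retaining models and 2171, 2194 and 2205 in the matching splicing models. These genes were named after their values were seen. The introns of MCL1, RELA and GREM1 had GC-AG ends. Their donor scores were -7.03 for MCL1, -6.58 for RELA, and -12.6 and -6.01 for GREM1, against a median of 6.42 in retained introns. GENCODE listed them as introns except the 210-base intron of GREM1.

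Where the 2 models differed in kind, so did their stops. A stop codon was counted as early when over 50 bases separated it from the final junction, the usual rule of thumb for nonsense-mediated decay. With a coding splicing model and a non-coding retaining model, 20 of 50 retaining models (40%) and 0 of 50 splicing models had one. In the opposite case, with a non-coding splicing model, 2 of 51 retaining models (3.92%) and 32 of 51 splicing models (62.7%) had one. RefSeq is known to give non-coding accessions to many candidates for decay, so the stop and the accession are not independent.

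Gene lists relevant to the beta cell were set beside the share over all multi-exon names, 4.14%, or 9.57% of names with at least 2 models. In granule and secretion genes it was 1 of 25 (INS), in glucose sensing and excitability 0 of 25, where an exact binomial interval reaches 13.7%, and in islet transcription factors 1 of 21. The numbers of names with at least 2 models, where retention could be annotated, were 15, 18 and 9, and the counts of 1, 0 and 1 are near the share over all names. The islet factor was PAX6, a master regulator of islet hormone genes, with a 99-base intron in its first exon and a frame of 422 amino acids in both models.

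Among genes of endoplasmic reticulum stress and folding, 3 of 28 (10.7%, interval 2.27 to 28.2) had retained introns: XBP1, DDIT3 and ATF4. ATF4, a translation-controlled stress factor, had a 602-base intron in its first exon and a frame of 351 amino acids in both models. Only 11 of the 28 names have at least 2 models, so the others could have none by the rule.

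Splicing factors and their kinases had retained introns in 6 of 46 names (13.0%, interval 4.94 to 26.3), with 11 introns in all; 35 of the 46 have at least 2 models. SRSF1 and SRSF2 are splicing activators that regulate their own messages. SRSF1 had introns of 921 and 200 bases, and keeping the 200-base intron gave a frame of 201 amino acids against 248. SRSF2 had introns of 995, 613 and 278 bases; its frame was 221 with and without the 995-base intron, which lies after it. SF1, the branch point binding protein, had a 432-base intron with frames of 639 and 638, and SRSF8 a 471-base intron after a frame of 248 in both models.

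CLK1, the kinase that phosphorylates SR proteins, had 3 introns of 378, 1022 and 1491 bases in 1 internal exon of a non-coding model. The 1491-base intron spans the others and the exon between them, so that removing it also skips that exon. NXF1, the messenger RNA export receptor, is a textbook case in which the retained intron carries an export signal. Its 1801-base intron gave a frame of 356 amino acids with an early stop, against 619 when removed. Of 10 genes on the list of known regulated retention, CLK1 and NXF1 were the 2 found, and only 4 of the 10 have at least 2 models. The NXF1 splice sites are shown because they bound that intron, and were picked after the values were seen.
NXF1 donor, minus strand, chr11:62567838-62567857: ctacatcagGTcagttgtag
NXF1 acceptor, minus strand, chr11:62566045-62566064: tgtcccgttcttgacAGcgc

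Cytosolic ribosomal protein genes had retained introns in 8 of 76 names (10.5%, interval 4.66 to 19.7), and 33 of the 76 have at least 2 models. Besides RPL13, RPL28 had introns of 194 and 3505 bases in its last exon, and its retaining model had a frame of 163 amino acids against 137 and 169. RPL31 had 121 against 125, and RPL17 had 184 in both models. RPL41, RPS3A and RPS27A had 1 intron each.

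Small RNA models lay inside 9 retained introns (0.766%), against 0.802% of the other introns of the same names. MIR17HG, the host of an oncogenic microRNA cluster, had all 6 of its microRNAs in a 3706-base intron that its other model keeps in the last exon, so the cluster is intronic in 1 model and exonic in the other. The hairpin models began 379 to 1088 bases from the intron's start. The cluster was picked after the values were seen, and its mature sequences are from RefSeq (GRCh38.p14), with the seed, bases 2 to 8, in capitals. The miR-17 and miR-20a seeds are the same, as are those of miR-19a and miR-19b.
hsa-miR-17-5p: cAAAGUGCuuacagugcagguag
hsa-miR-20a-5p: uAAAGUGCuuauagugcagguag
hsa-miR-18a-5p: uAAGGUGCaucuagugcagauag
hsa-miR-19a-3p: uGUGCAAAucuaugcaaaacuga
hsa-miR-19b-3p: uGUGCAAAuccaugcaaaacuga
hsa-miR-92a-3p: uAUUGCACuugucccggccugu

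The remaining hosts held a microRNA or a small nucleolar RNA, the guides of ribosomal RNA modification. MIR6755 in EED and MIR6805 in RPL28 each ended on the last base of the retained intron, or of the shorter one for RPL28. RPL17 held SNORD58B, RPS3A SNORD73A, SNHG7 SNORA17 and DKC1 SNORA56. DKC1 itself encodes dyskerin, a protein that works with the class of RNA it hosts.

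The assembled models are models in the file that differ from the reference. The file holds no value that shows what each of them owes to the 6 libraries. Class code j marks models that Cufflinks assembled with at least 1 junction in common with a reference model, without matching it. Of the retained introns, 34.9% were spliced in such a model (32.2 to 37.7), against 47.5% (46.5 to 48.5) of the other introns of the same names and 18.1% of all other introns. In names that have an assembled model the shares were 65.8% and 79.0%. Retained introns lay inside an exon of an assembled model in 16.1% of cases (189 introns) and the other introns in 0.0867% (8 introns). By the rule a retained intron lies inside a reference exon of its gene name and no other intron does. Assembled models that carry such exons hold retained introns for that reason, so the contrast is not free of the rule. Of 4907 assembled models, 603 spliced a retained intron, 201 held one in an exon and 58 did both for different introns. The file does not say how many reads cross any intron, and these counts cannot be split by library.

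The internal class was spliced in an assembled model most often, in 52.7%, against 29.2% of the first and 34.4% of the last class. XBP1, DDIT3, NXF1, HNRNPM and CLK1 have no assembled model under their names, so the assembled models add nothing on their introns. In SRSF1 each of the introns was spliced in 1 assembled model. In RPL13 the 141-base intron was spliced in 1 assembled model and the 227-base intron was held in an exon of 1. The 119- and 153-base introns of INS were each spliced in 1 assembled model, filed under the overlapping name INS-IGF2, and the 179-base intron in 0. A transcript that matches a reference model exactly is not counted as an assembled model, so the 0 does not mean unspliced. A name with a retained intron had an assembled model in 46.8% of 887 cases, against 25.7% of the 8378 names with at least 2 reference models and no retained intron.

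GENCODE release 44, mapped to the same genome build, is a separate annotation that labels retained intron transcripts as a type. It listed 94.5% of the retained introns as introns, against 98.2% of the other introns of the same names. It also held 93.6% of them inside an exon, against 11.7%. The exon belonged to a transcript of the type retained intron in 26.7% of cases, against 9.29%, and to a protein-coding transcript in 76.8%, against 1.69%. In the internal class the retained intron type reached 52.7%. The 2 annotations draw on the same public transcripts and are not independent.

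The share of introns that were retained was lowest on chromosome 18 and highest on chromosome 14, both picked after the values were seen. Over all chromosomes it was 0.538%. Introns of the same gene are not independent, so the intervals given here cover counting error only. Chromosome 18 had 3 among 3427 introns (0.0875%, interval 0.0181 to 0.256), and chromosome 14 had 57 among 6610 (0.862%, 0.654 to 1.12). Median intron GC content was 39.6% on chromosome 18 and 42.6% on chromosome 14.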

How the data were processed

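The merged transcript assembly of the 6 libraries was analysed (3 INS-KD, 3 Negative Control, named from the sample titles). Per the labels' protocols, full-length cDNA was made from total RNA with a low-input kit. The submitters' processing notes list TopHat2 and Cufflinks and the build hg19, with versions and settings not given in the sources used here. Deposited by the authors were exon positions in bases and text tags, with 555595 exon lines and 0 numbers in the score column, so depth is unknown and nothing was tested between groups.

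Members and gene lists were chosen with earlier results of these data known. Introns were read from exon positions, and sequences from GRCh37. Shares have exact Clopper-Pearson 95% intervals, and medians have order statistic intervals. Position weights were set on non-member introns of at least 30 bases, with a pseudocount of 1. GENCODE exons and introns were matched on the same strand. Scripts were tested on simulated models. Named genes were INS and XBP1, up to 6 names per list, the 10 names with most introns, and the 3 shortest and 3 longest introns; others are said to be chosen later, and some named members are not reported here. Python 3.11.15, numpy 2.4.6, scipy 1.17.1 and pysam 0.24.0 were used.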

Additional observations from a re-analysis of the deposited data

How the results depend on the processing

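Over 10 other settings, 119 of 137 values of 14 results stayed within their interval or, for counts, within 1.5 times, and 18 moved; a result that a setting fixes by its own construction was left out there. With internal retaining exons alone there were 199 retained introns, 0.0911% of introns and 0.780% of gene names. Their median length was 174 bases, their median acceptor score 5.84, and their ends were GT-AG in 88.9%. Lengths were a multiple of 3 in 54.8%, non-coding models alone retained 27.1%, 52.8% were spliced in an assembled model, 20.1% lay inside an exon of one, and the frame was shorter in 27.6% of pairs. With protein-coding retaining models, the shares were 0.453% of introns and 3.57% of names, and 14.7% were internal. With retaining exons that keep the outer ends of the exon pair, they were 0.393% and 3.25%, with 19.9% internal and 13.4% inside an assembled exon. Leaving out repeats of 10 or more bases, a setting chosen after seeing the data, moved none of the 14. No paired analysis was possible because the file holds no value per library; for the same reason no replicate could be left out. The longest frame may not be the translated one, and annotation depth differs between genes.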
